A study of Mus musculus with 8 samples.

Results

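The B cell and plasma cell program was followed through 9 genes in kidneys of 8 mice, all given aristolochic acid, a compound of Aristolochia plants toxic to the proximal tubule. The genes were taken by symbol from the 42256 Ensembl rows of the count table, and all 9 were found. They were the plasma cell genes Mzb1, Derl3 and Tnfrsf17, the transcription factor genes Xbp1 and Prdm1, and the B cell genes Cd79a, Cd79b, Ms4a1 and Pax5. The mice were adult males, and their strain is labelled as mixed 129S1/Sv x C57BL/6. Of these, 4 were CDH11+/+ and 4 were CDH11-/-, lacking by label both copies of the gene for cadherin-11, an adhesion protein of mesenchymal cells. Each had 3 mg/kg aristolochic acid daily for 5 days, and kidneys were taken 2 weeks after the last dose. The title of the series speaks of a different injury (Unx/AngII), and here the sample labels were used. There was no uninjured kidney, so no resting level of these genes could be set beside the values. The sources used here do not say whether the mice were littermates.

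B cells carry a membrane antibody that signals through the CD79A and CD79B chains, and their identity is held by the transcription factor PAX5. When a B cell becomes a plasma cell, BLIMP1 (Prdm1) represses the B cell genes, and XBP1, a transcription factor of the unfolded protein response, enlarges the secretory apparatus. Plasma cells then secrete antibody, depend on survival signals through receptors such as BCMA (Tnfrsf17), and lose CD20 (Ms4a1) and PAX5. Kidney holds few cells of either kind at rest, and such cells gather in the interstitium in chronic injury. Xbp1 and Prdm1 are also used by many other cells, so neither marks the lineage in whole kidney.

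Libraries held 10675309 to 13885009 counts in the CDH11+/+ group (n = 4) and 12966177 to 18539479 in the CDH11-/- group (n = 4). Levels are given as CPM (counts per 1000000 counts of a library, with TMM scaling between libraries), and 1 count was worth 0.0528 to 0.0923 CPM. The targeted gene did not run with the labels. Cdh11 was at 58.0 to 75.6 CPM in the CDH11+/+ libraries and higher, at 89.9 to 117.2 CPM, in those labelled CDH11-/-, so each direction below is that of the libraries as labelled. Kidney RNA was abundant in all 8 libraries: 8 proximal tubule markers, Slc34a1 and Lrp2 among them, together made 1326 to 4103 CPM. These were whole kidneys, so fewer cells of a type and less RNA per cell cannot be told apart.

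In the kidneys labelled CDH11-/-, the plasma cell genes Mzb1 and Derl3 were at higher values in every library than in any control, and 24 of the 25 Tnfrsf17 counts came from these libraries. Cd79b, Ms4a1, Pax5 and Xbp1 overlapped the controls. Mean Mzb1 was 2.27-fold and mean Derl3 1.95-fold that of the CDH11+/+ group, against 1.07-fold for Cd79b. None of these differences passed the test across all genes. Of the 9 genes, 6 had enough counts to be tested, and 0 of the 6 were called by the quasi-likelihood test of edgeR, at a Benjamini-Hochberg adjusted p under 0.05. Over all 15852 genes tested, 0.719% were called, 59 higher (0.372%) and 55 lower (0.347%). At an unadjusted p under 0.05, 2 of the 6 were past the threshold, where 14.1% of all genes were. DESeq2 called 0 of the 9 and 2.06% of all genes it fitted. Limma-voom with quality weights called 1, Derl3, in a fit that called 4.32% of all genes.

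Mzb1 (ENSMUSG00000024353, chromosome 18, 35647267 to 35649367, minus strand, GRCm38) encodes a chaperone-like protein of the endoplasmic reticulum that helps antibody assembly in plasma cells and marginal zone B cells. In the CDH11+/+ libraries it was at 0.830, 2.05, 4.75 and 3.55 CPM for replicates 1 to 4. In the CDH11-/- libraries it was at 6.11, 7.05, 5.38 and 6.82 CPM. All 4 CDH11-/- libraries lay above every control, and the controls were spread widely, with replicates 1 and 2 lowest. Mzb1 averaged 2.79 ± 1.71 and 6.34 ± 0.751 CPM (SD, n = 4 each), and the fitted log2 fold change was 1.16 ± 0.38 (SE, adjusted p = 0.217 by edgeR quasi-likelihood, unadjusted p = 0.0120). The fold ran from 0.89 to 1.54 (log2) over 16 other fits, lowest without CDH11+/+ replicate 1 and highest without CDH11+/+ replicate 3. Mzb1 shares 695 exon bases with a gene model absent from the count table, SPATA24 on the same strand, so reads over those bases cannot be told apart.

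Derl3 (ENSMUSG00000009092, chromosome 10, 75893413 to 75895941, plus strand) encodes derlin-3, a membrane protein that helps to draw misfolded proteins out of the endoplasmic reticulum for degradation. It was at 1.01, 0.836, 1.19 and 0.848 CPM in the CDH11+/+ libraries and at 1.88, 1.55, 2.32 and 1.82 CPM in the CDH11-/- libraries. Here the controls were close together, and again no CDH11-/- library overlapped them. Derl3 averaged 0.971 ± 0.165 and 1.89 ± 0.320 CPM (SD, n = 4 each), and the fitted log2 ratio was 0.96 ± 0.26 (SE, adjusted p = 0.133 by edgeR quasi-likelihood, unadjusted p = 0.00343). These values rest on 11 to 15 counts a library in the controls and 24 to 44 in the others. In limma-voom with quality weights Derl3 passed, at 1.05 with an adjusted p = 0.0415. In the authors' normalized values the labels overlapped, since CDH11+/+ replicate 3 stood at 21.5 and CDH11-/- replicate 2 at 19.6, and limma on those values gave 0.74 (adjusted p = 0.325). Mzb1 and Derl3 were thus 2 of 6 tested genes whose libraries were higher in CDH11-/- without overlap, where 3.59% of all tested genes were (7.33% in either direction).

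Tnfrsf17 (ENSMUSG00000022496, chromosome 16, 11313812 to 11320074, plus strand) encodes BCMA, the receptor that keeps long-lived plasma cells alive on binding APRIL. It had 0, 0, 0 and 1 counts in the CDH11+/+ libraries and 4, 8, 11 and 1 in the CDH11-/- libraries. A count of 0 allows up to 3 counts, or 0.228 to 0.277 CPM in those 3 libraries. Summed over libraries, 24 counts stood against 1, a ratio of 19 per unit of depth with a 95% exact Poisson interval of 3.11 to 783.3 that covers counting error only. Replicate 4 of each label was nearly equal, at 0.0771 CPM (CDH11+/+) and 0.0757 CPM (CDH11-/-), so the groups overlapped. Tnfrsf17 averaged 0.0193 ± 0.0386 and 0.361 ± 0.233 CPM (SD, n = 4 each), with a two-sided exact permutation p = 0.0571 (0.0286 is the smallest this design allows). The gene was too low to pass the filter on counts. With no filter edgeR gave an adjusted p = 0.153 and DESeq2 0.120, at unadjusted p-values of 0.00322 and 0.00541.

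**Figure D1:**
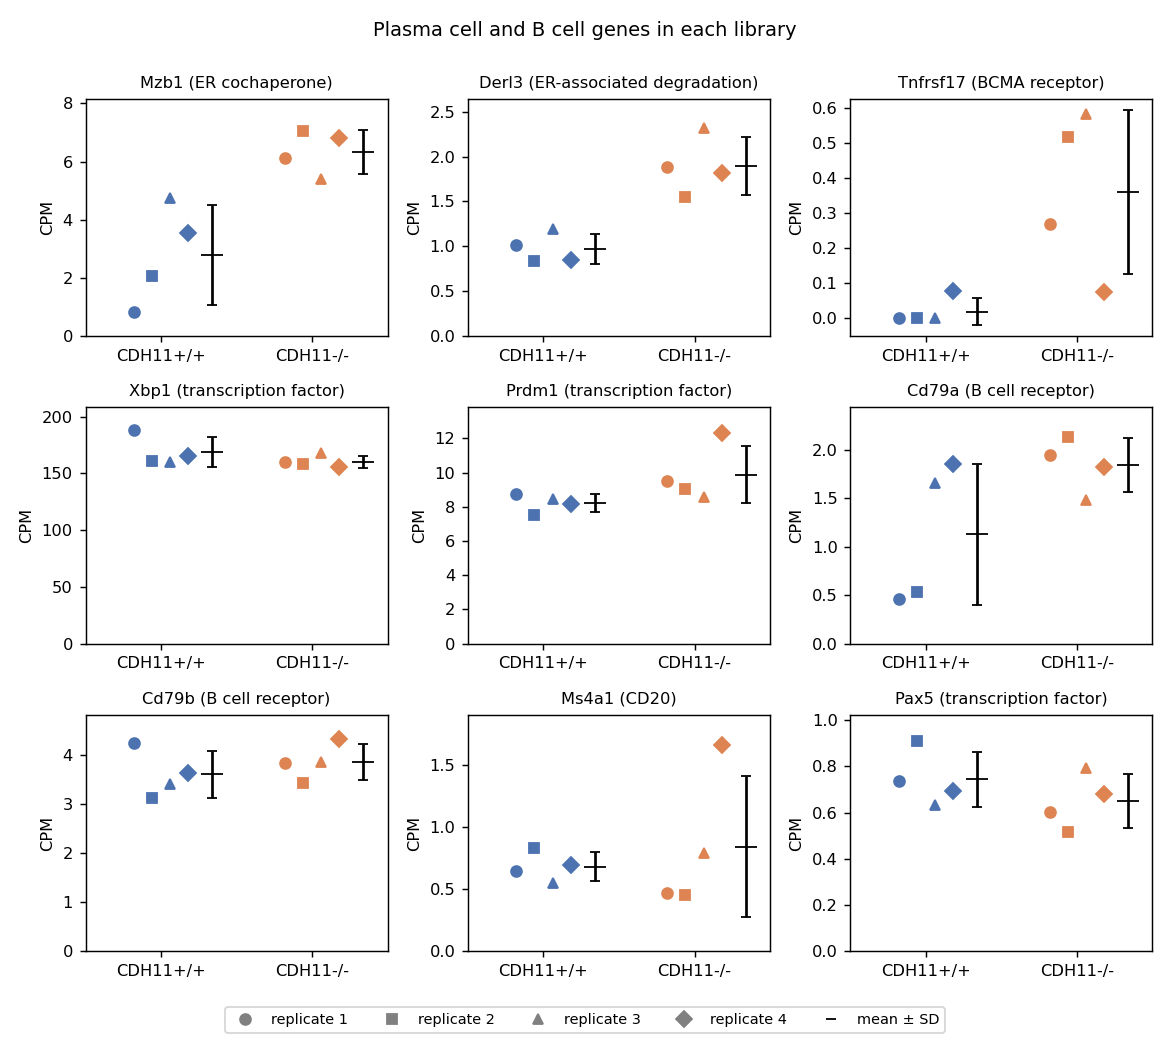
Each panel plots the level of 1 gene in CPM on a linear axis, with 1 point a library (the symbol gives the replicate, the colour the labelled genotype) and a bar for mean ± SD (n = 4). The CDH11-/- libraries lie above all controls for Mzb1 and Derl3, Tnfrsf17 is at 0 in 3 controls, and the labels overlap in the other panels.

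Derl3 is a textbook target of the unfolded protein response, so its promoter is printed with that of Tnfrsf17, the other plasma cell gene with an entry, and that of Pax5, the B cell factor. RefSeq promoters (GRCm38.p6, 300 bases that span the start) were at hand for 6 of the 9 genes. Capitals mark the endoplasmic reticulum stress response element bound by NF-Y with ATF6 (CCAAT, then 9 bases of any kind, then CCACG), and ACGTG, the core bound by XBP1, each searched on both strands. The windows are chr10:75893148-75893447 (plus strand) for Derl3, chr16:11313559-11313858 (plus strand) for Tnfrsf17 and chr4:44710645-44710944 (minus strand) for Pax5.
Derl3: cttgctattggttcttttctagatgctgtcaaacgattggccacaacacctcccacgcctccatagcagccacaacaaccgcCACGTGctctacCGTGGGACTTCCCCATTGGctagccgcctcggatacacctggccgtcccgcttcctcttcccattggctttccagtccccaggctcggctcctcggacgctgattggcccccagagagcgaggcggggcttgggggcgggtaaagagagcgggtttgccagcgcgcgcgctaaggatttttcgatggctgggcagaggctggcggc
Tnfrsf17: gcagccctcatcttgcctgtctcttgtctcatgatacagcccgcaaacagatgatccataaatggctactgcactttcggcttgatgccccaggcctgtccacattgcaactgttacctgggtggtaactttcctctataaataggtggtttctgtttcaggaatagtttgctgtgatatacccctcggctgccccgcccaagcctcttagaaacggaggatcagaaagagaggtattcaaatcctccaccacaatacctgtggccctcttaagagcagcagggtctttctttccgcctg
Pax5: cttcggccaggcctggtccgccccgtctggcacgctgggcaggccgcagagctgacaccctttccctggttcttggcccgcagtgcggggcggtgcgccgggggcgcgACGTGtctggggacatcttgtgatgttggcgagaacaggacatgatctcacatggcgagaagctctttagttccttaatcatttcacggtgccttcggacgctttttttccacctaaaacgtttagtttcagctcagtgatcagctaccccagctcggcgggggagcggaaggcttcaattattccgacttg
The Derl3 window held the full stress element once, at bases 95 to 113 on the reverse strand, where 0.119% of 32851 promoters of this length hold it. It also held ACGTG on each strand at bases 83 to 88, as the overlapping palindrome in capitals, and 19.6% of promoters hold that core. CCAAT matched 5 times in Derl3, 1 of them within the stress element, against 37.4% of promoters with any match. CCACG matched 3 times, once within the element and once over the ACGTG pair, and is in 32.8% of promoters. Tnfrsf17 had none of these motifs in its window, and Pax5 had ACGTG once. Cd79a, Prdm1 and Xbp1, not printed, had no full element and no ACGTG. The octamer ATGCAAAT, known from B cell promoters and present in 1.74% of promoters, was in none of the 6.

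Xbp1 and Prdm1 drive the plasma cell state, and the labels overlapped for both. Xbp1 (ENSMUSG00000020484, chromosome 11, 5520659 to 5525893, plus strand) was at 188.0, 161.1, 159.7 and 165.7 CPM in the CDH11+/+ libraries and at 160.2, 157.9, 167.9 and 155.8 CPM in the CDH11-/- libraries. The highest library was CDH11+/+ replicate 1, in which Mzb1 was lowest. Xbp1 averaged 168.6 ± 13.2 and 160.5 ± 5.26 CPM (SD, n = 4 each), with a log2 fold change of −0.07 ± 0.07 (SE, adjusted p = 0.682 by edgeR quasi-likelihood). Gene counts do not separate the spliced, active form of Xbp1 from the unspliced form. Prdm1 (ENSMUSG00000038151, chromosome 10, 44437177 to 44528501, minus strand) was at 8.77, 7.52, 8.47 and 8.17 CPM in the controls and at 9.54, 9.05, 8.60 and 12.3 CPM in the CDH11-/- libraries. CDH11-/- replicate 4 stood above the rest, and CDH11-/- replicate 3 lay below the highest control. The fit gave 0.26 ± 0.14 (SE, adjusted p = 0.434 by edgeR quasi-likelihood).

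The signalling chains of the B cell receptor differed in pattern. Cd79a (ENSMUSG00000003379, chromosome 7, 24897381 to 24902197, plus strand) encodes the alpha chain, which naive B cells and early plasma cells both carry. It was at 0.461, 0.532, 1.66 and 1.85 CPM in the CDH11+/+ libraries and at 1.95, 2.13, 1.48 and 1.82 CPM in the CDH11-/- libraries. CDH11+/+ replicates 1 and 2, on 5 and 7 counts, were low, and replicates 3 and 4 lay among the CDH11-/- libraries. The log2 fold change was 0.69 ± 0.41 (SE, adjusted p = 0.482 by edgeR quasi-likelihood). It shrank to 0.45 without CDH11+/+ replicate 2 and grew to 1.03 without CDH11+/+ replicate 4. Cd79b (ENSMUSG00000040592, chromosome 11, 106311341 to 106314762, minus strand), the beta chain, was at 4.24, 3.11, 3.40 and 3.62 CPM in the controls. In the CDH11-/- libraries it was at 3.83, 3.43, 3.85 and 4.32 CPM. These ranges overlapped almost wholly, and the fit gave 0.10 ± 0.18 (SE, adjusted p = 0.841 by edgeR quasi-likelihood).

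Ms4a1 and Pax5 are lost when B cells become plasma cells, and both were near the limit of detection. Ms4a1 (ENSMUSG00000024673, chromosome 19, 11249675 to 11266241, minus strand) encodes CD20 and had 7, 11, 7 and 9 counts in the CDH11+/+ libraries and 7, 7, 15 and 22 in the CDH11-/- libraries. That is 0.682 ± 0.118 against 0.845 ± 0.569 CPM (SD, n = 4 each), and an exact two-sided permutation test gave p = 0.83. CDH11-/- replicate 4 alone was high, at 1.67 CPM, and without it the difference of means turned from 0.163 to −0.111 CPM. Pax5 (ENSMUSG00000014030, chromosome 4, 44524757 to 44710487, minus strand) had 8, 12, 8 and 9 counts in the controls and 9, 8, 15 and 9 in the others. Its levels were 0.744 ± 0.120 and 0.649 ± 0.117 CPM (SD, n = 4 each), and an exact two-sided permutation test gave p = 0.314. Pooled ratios of CDH11-/- over CDH11+/+ were 1.19 for Ms4a1 (95% exact Poisson interval 0.757 to 1.89) and 0.879 for Pax5 (0.550 to 1.41), for counting error only. Antisense gene models overlap Ms4a1 and Pax5, and for Pax5 they share exon bases. The libraries were directional, and the sources used here do not say whether reads were counted by strand.

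Per kilobase of annotated exon, averaged over the 8 libraries, Xbp1 was by far the most abundant, at 50.7 CPM per kb. Mzb1 followed at 3.76, Cd79b at 2.60, Prdm1 at 1.62, Cd79a at 1.02 and Derl3 at 0.719 CPM per kb. Tnfrsf17 (0.233), Ms4a1 (0.123) and Pax5 (0.0787 CPM per kb) were lowest. Not every step was clear: Mzb1 exceeded Cd79b in 6 of 8 libraries, Cd79a exceeded Derl3 in 5 and Tnfrsf17 exceeded Ms4a1 in 3. The remaining 5 steps held in 8 of 8 libraries. By label, mean Mzb1 took different places: in CDH11+/+ it was below Cd79b (2.30 against 2.51 CPM per kb) and in CDH11-/- above it (5.22 against 2.69).

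Ratios of plasma cell gene counts to B cell gene counts can be read within a library, where scaling cancels. Marginal zone B cells also make Mzb1, so these are ratios of transcripts and do not count cells. Mzb1 counts divided by Cd79b counts were 0.196, 0.659, 1.40 and 0.979 in the CDH11+/+ libraries and 1.60, 2.06, 1.40 and 1.58 in the CDH11-/- libraries. CDH11+/+ replicate 3 was thus level with the lowest CDH11-/- library, and the other controls lay below all 4. Over the summed counts of Cd79b, Ms4a1 and Pax5 the labels overlapped: Mzb1 gave 0.148, 0.422, 1.03 and 0.708 in the controls and 1.25, 1.60, 0.990 and 1.02 in the CDH11-/- libraries. Jchain, the joining chain of secreted IgA and IgM, gave a wider range: 1.20, 1.15, 27.7 and 12.1 Jchain counts per Cd79b count in the controls and 49.4, 70.4, 64.0 and 46.9 in the CDH11-/- libraries. In all 3 ratios CDH11+/+ replicates 1 and 2 were lowest.

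**Figure D2:**
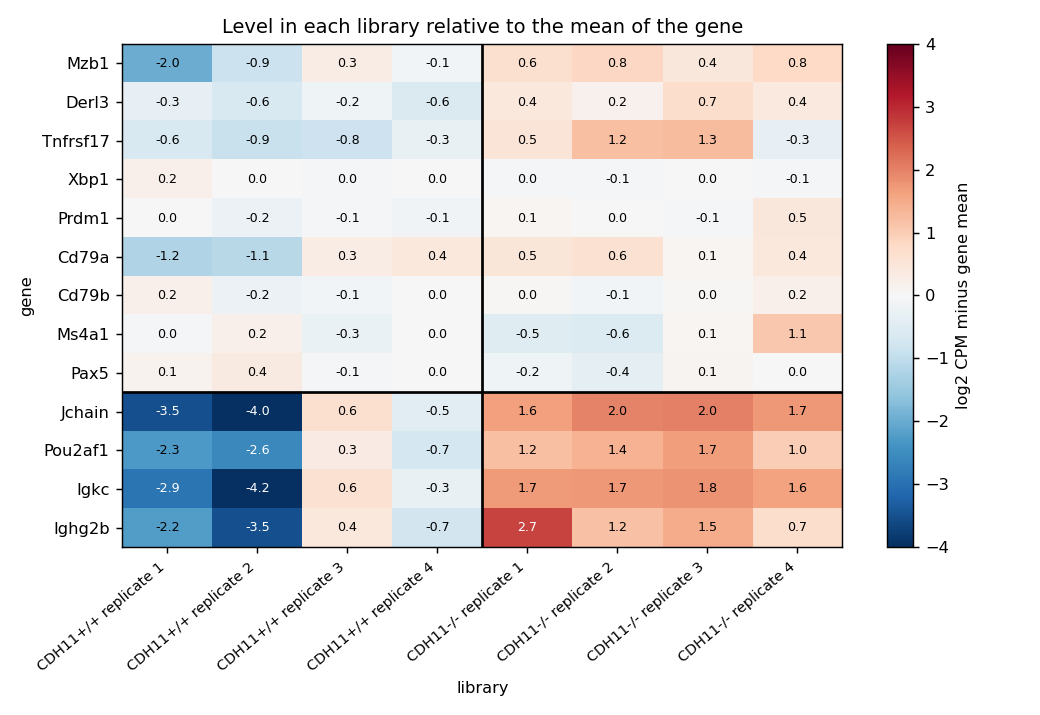
Colour and number give log2 CPM (prior count of 2) minus the mean of the gene over 8 libraries, for the 9 genes above the line and for Jchain, Pou2af1, Igkc and Ighg2b below it. CDH11+/+ replicates 1 and 2 are the lowest libraries for Mzb1, Cd79a, Jchain, Pou2af1, Igkc and Ighg2b, while Xbp1 and Cd79b differ little between libraries.

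Genes around the program were read from 8 lists with 116 genes, of which 104 were tested. Of the 104, 67 had positive and 37 negative values, with a median log2 fold change of 0.09 beside −0.01 over all genes tested. The edgeR test called 0 of them (18 at an unadjusted p under 0.05, 14 higher and 4 lower, beside 14.1% of all genes). DESeq2 called 3, beside 2.06% of all genes, and limma-voom with quality weights 6, beside 4.32%. In 8 of the 104 the CDH11-/- libraries were higher without overlap, beside the 3.59% of all genes, and in 2 they were lower, beside 3.74%.

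Among plasma cell genes, 12 of 15 were positive (median 0.13), and Jchain stood far from the rest. It was at 5.07, 3.57, 94.3 and 44.0 CPM in the CDH11+/+ libraries and at 189.1, 241.1, 246.5 and 202.4 CPM in the CDH11-/- libraries. The groups did not overlap, but the controls spanned more than an order of magnitude, and the fit gave 2.57 ± 0.95 (log2, SE, adjusted p = 0.306 by edgeR quasi-likelihood, and 0.0335 in limma-voom with quality weights). Txndc5, a disulfide isomerase of secretory cells, was at 0.13 ± 0.06 (SE, edgeR adjusted p = 0.340). Sdc1, the plasma cell surface marker syndecan-1 that tubule epithelium also makes, was at 44.2 to 64.3 CPM in all libraries.

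Pou2af1 led the 12 B lineage transcription factors, of which 9 were positive (median 0.11). It encodes OCA-B, the octamer coactivator of B cells and plasma cells. Its levels were 0.277, 0.228, 2.69 and 1.23 CPM in the CDH11+/+ libraries and 5.04, 5.75, 7.13 and 4.32 CPM in the CDH11-/- libraries, again without overlap and with the same pair of controls lowest. The log2 fold change was 2.31 ± 0.57 (SE, adjusted p = 0.130 by edgeR quasi-likelihood), and it passed in DESeq2 (adjusted p = 0.00228), in limma-voom with quality weights (0.0229) and in edgeR without CDH11+/+ replicate 3 (0.0221). Ikzf1, a factor of all lymphoid cells, was at 0.31 ± 0.11 (SE, edgeR adjusted p = 0.247).

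In the list of B cell receptor components and coreceptors, 13 of 15 tested genes were positive (median 0.13). The kinase genes Lyn (0.36 ± 0.11, log2, SE, edgeR adjusted p = 0.185) and Btk (0.40 ± 0.15, edgeR adjusted p = 0.270) had the smallest p, and both are also expressed by myeloid cells. Lyn passed without CDH11+/+ replicate 1 (0.49, edgeR adjusted p = 0.00686), where 6.25% of all genes were called, and in limma-voom with quality weights (0.44, adjusted p = 0.0296).

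Immunoglobulin constant regions had a median of 2.02, and 7 of 9 tested genes were positive. Igkc, the kappa light chain constant region, was at 18.1, 7.22, 210.2 and 112.0 CPM in the CDH11+/+ libraries and at 445.1, 460.8, 477.3 and 417.1 CPM in the CDH11-/- libraries. Its log2 fold change was 2.37 ± 0.97 (SE, adjusted p = 0.347 by edgeR quasi-likelihood), and that of Ighg2b, an IgG heavy chain, was 2.56 ± 0.84 (SE, edgeR adjusted p = 0.259, and 0.0462 in limma-voom with quality weights). Apart from Igkc and Ighg2b, the constant regions named here were picked after their values were seen. Igha, the IgA heavy chain, was at 9.72 to 376.3 CPM in the controls and 686.0 to 923.3 CPM in the CDH11-/- libraries. Its log2 fold change was 2.60 ± 1.08 (SE, edgeR adjusted p = 0.355). Ighm, the IgM heavy chain of naive B cells, overlapped at 57.7 to 143.0 and 60.9 to 92.0 CPM. Of the 9 tested genes, 3 (Igha, Igkc and Ighg2b) were higher in CDH11-/- without overlap, beside 3.59% of all genes. The labels overlapped for Ighg1 (2.02, log2), Ighg2c (2.07), Ighg3 (0.16), Iglc2 (1.33) and Ighd (−0.11). Heavy chain constant genes resemble each other, so their reads could be split in the authors' counting.

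**Figure D3:**
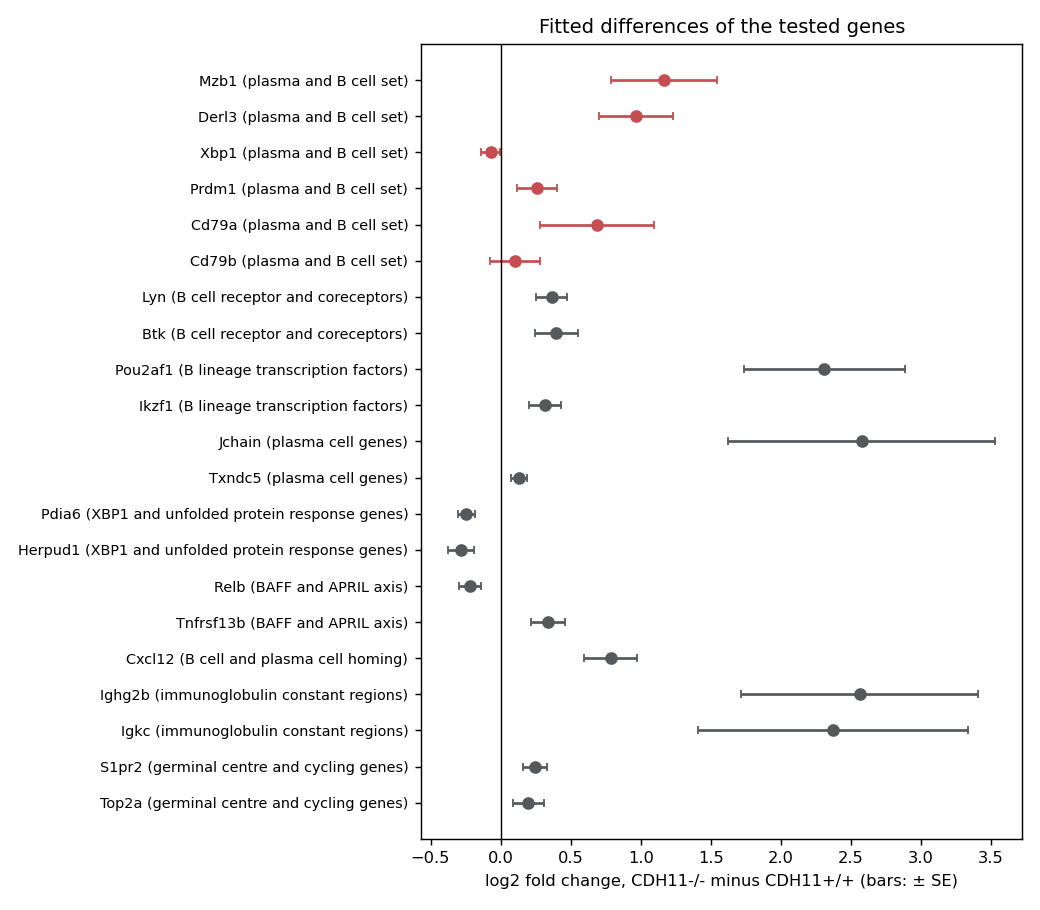
Points give the fitted log2 fold change (CDH11-/- minus CDH11+/+, edgeR) and bars ± SE for the 6 tested genes of the set, in red, and, in grey, for the genes named from the lists. Jchain, Pou2af1, Igkc and Ighg2b lie above 2 with wide errors, Mzb1 and Derl3 near 1, and Xbp1 and Cd79b near 0.

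The unfolded protein response genes, many of them driven by XBP1 and ATF6, centred near the median of all genes. The list also holds Atf4, Ddit3, Ern1 and Atf6, so its median is not that of XBP1 and ATF6 targets alone. Of 24 genes, 8 were positive and 16 negative (median −0.02). Pdia6, a disulfide isomerase, was lower without overlap, at 258.5 ± 12.3 against 218.3 ± 7.06 CPM (SD, n = 4 each), or −0.24 ± 0.06 (log2, SE, adjusted p = 0.0907 by edgeR quasi-likelihood, 0.00633 in DESeq2, 0.0355 in limma-voom with quality weights and 0.0351 without CDH11+/+ replicate 1). Herpud1, a degradation adaptor of the endoplasmic reticulum, was at −0.28 ± 0.09 (SE, edgeR adjusted p = 0.198, and 0.0352 without CDH11+/+ replicate 1). Of the derlin paralogs, Derl1 and Derl2 belong to this list and were at −0.15 and −0.00.

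Survival and homing signals gave mixed directions. In the BAFF and APRIL axis, 3 of 8 tested genes were positive (median −0.08). The cytokine genes themselves, Tnfsf13b for BAFF and Tnfsf13 for APRIL, overlapped between the labels, at 18.2 to 27.4 against 22.8 to 32.6 CPM and at 6.41 to 8.74 against 5.04 to 7.23 CPM. Tnfrsf13b, the receptor TACI, was at 0.34 ± 0.12 (log2, SE, adjusted p = 0.244 by edgeR quasi-likelihood, and 0.0439 without CDH11+/+ replicate 1), and Relb, a factor of noncanonical NF-kB, at −0.22 ± 0.08 (edgeR adjusted p = 0.240). Of 15 homing genes 9 were positive (median 0.01). Cxcl12, the stromal chemokine that holds plasma cells in bone marrow, was at 47.0, 39.3, 48.3 and 44.3 CPM in the CDH11+/+ libraries and at 62.1, 101.4, 87.8 and 56.2 CPM in the CDH11-/- libraries. No library overlapped, and the fit gave 0.78 ± 0.19 (SE, adjusted p = 0.121 by edgeR quasi-likelihood, 0.000877 in DESeq2 and 0.0229 in limma-voom with quality weights).

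In the germinal centre and cell cycle list, Rgs13, a regulator of G protein signalling, was at 0 in all 8 libraries. The 6 tested genes of this list, mostly general cell cycle genes, were positive (median 0.21). S1pr2, which confines B cells to germinal centres and is also made by other cells, was at 0.24 ± 0.09 (log2, SE, adjusted p = 0.240 by edgeR quasi-likelihood), and the topoisomerase gene Top2a at 0.20 ± 0.11 (edgeR adjusted p = 0.456).

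**Figure D4:**
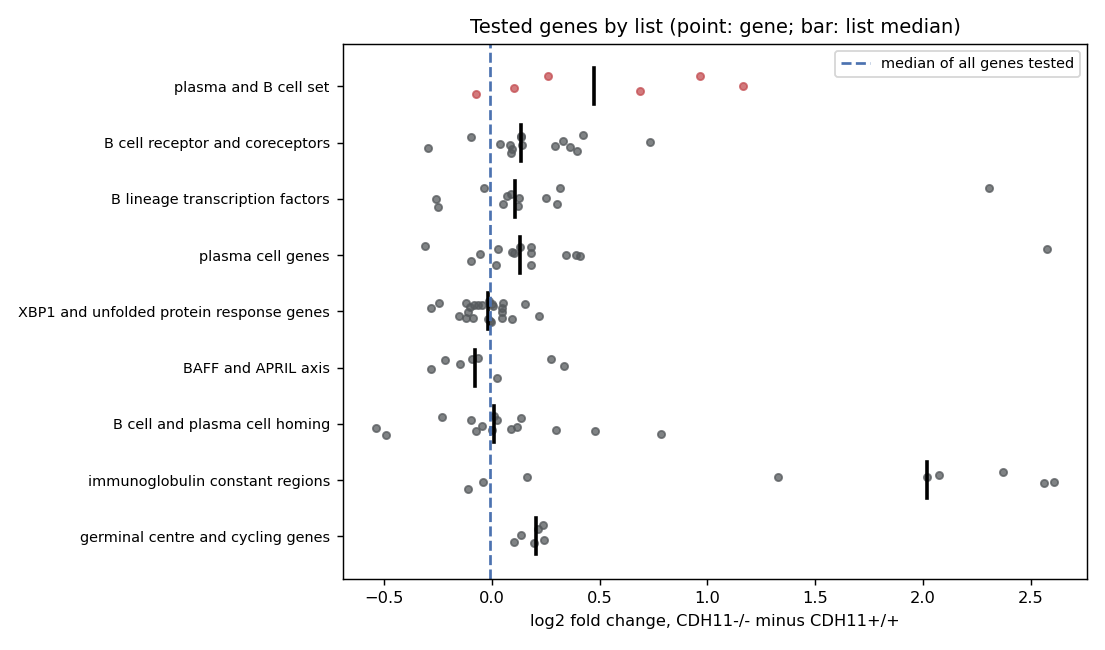
Each point is the fitted log2 fold change (CDH11-/- minus CDH11+/+) of 1 tested gene, black bars are list medians and the dashed line is the median of all genes tested. The constant regions have a median of 2.02 and the 6 tested genes of the set 0.47, while the unfolded protein response list centres at −0.02.

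Markers of other cells were read in the same libraries. The 10 T cell markers summed to 140.4 to 187.3 CPM in the controls and 153.5 to 241.1 CPM in the CDH11-/- libraries, with 8 of 10 positive, and the 8 macrophage markers, 8 of 8 positive, to 1614 to 2579 and 1867 to 2353 CPM. Both overlapped, and 0 genes of either list were called. Proximal tubule markers, 8 of 8 negative and 0 called, summed to 1897 to 4103 CPM in the controls and 1326 to 2293 CPM in the CDH11-/- libraries. Among controls that sum was lowest in replicate 1, at 1897 CPM, and highest in replicate 2, at 4103 CPM, the libraries lowest in Mzb1 and Jchain. Singly, Slc34a1, Slc5a2, Slc5a12, Slc22a6 and Slc22a8 were lower in CDH11-/- without overlap, beside 3.74% of all genes, and Lrp2, Cubn and Slc27a2 overlapped. The log2 fold changes without overlap ran from −0.56 (Slc5a2, edgeR adjusted p = 0.228) to −2.31 (Slc22a8, edgeR adjusted p = 0.0621). The 5 endothelial markers, 5 of 5 positive and 0 called, summed to 186.9 to 251.4 and 245.5 to 270.2 CPM. The lymph node list of 6 summed to 18.9 to 45.0 and 34.7 to 45.4 CPM, and most of that was Cxcl13 (12.6 to 38.4 CPM over all libraries). Ccl21a was at 2.31 to 6.45 CPM and Cr2 at 1.11 to 2.46 CPM. Glycam1, Madcam1 and Fcer2a were at no more than 0.0771, 0.606 and 0.830 CPM in any library. In the plasma cell list of Mzb1, Derl3, Tnfrsf17, Jchain and Sdc1, 4 of 4 tested genes were positive and 0 called. This list summed to 50.7 to 146.4 and 261.7 to 309.6 CPM. Most of that sum was Jchain (3.57 to 94.3 and 189.1 to 246.5 CPM) and Sdc1 (44.2 to 64.3 CPM in all libraries), and Mzb1 was at no more than 7.05 CPM. The 6 plasmacytoid dendritic cell markers, which share the secretory program, summed to 232.9 to 266.1 and 231.4 to 254.5 CPM. Of these 6, 4 were positive and 0 called. Most of that sum was Bst2, Tcf4 and Irf7, at means of 78.0, 96.3 and 65.9 CPM in the controls. Siglech overlapped, at 0.830 to 2.61 and 1.07 to 1.55 CPM. Ccr9 was higher in CDH11-/- without overlap, at 2.08 to 2.77 and 2.80 to 3.49 CPM (edgeR adjusted p = 0.416), beside 3.59% of all genes. Irf7 was at −0.26 (log2, edgeR adjusted p = 0.178) and overlapped. The part of these other cell types in the differences of Mzb1, Derl3 and Tnfrsf17 was not tested.

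The genes whose log2 CPM ran most like Mzb1 over the 8 libraries, of 14633 compared, were 4933439C10Rik (Pearson r = 0.97), Wdr78 (0.96), Mrap2 (0.95), Edem2 (0.94) and Pdcd4 (0.94). For Cd79a they were Mrap2 (0.95), Gtpbp2 (0.94), Mks1 (0.94), Ccdc65 (0.93) and Ddx43 (0.93). Spearman's rho ran from 0.71 to 0.95 for the Mzb1 set and from 0.55 to 0.79 for the Cd79a set. Edem2 encodes a mannosidase-like protein of endoplasmic reticulum degradation, and its mean was 46.0 CPM in the controls and 51.2 CPM in the CDH11-/- libraries. All these genes were read in the same 8 libraries, which differ in label and depth, and no p is given for such a ranking.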

How the data were processed

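RNA of 8 kidneys (4 CDH11+/+, 4 CDH11-/-) was sequenced from directional libraries, per the labels' protocols. The authors deposited counts per Ensembl gene, whole numbers, and a table of normalized values, a signal whose ratio to the count varies between genes of a library (33.1% of ratios within 1% of the library median). DRAGEN, DESeq2 and the build mm10 are named, per the submitters' processing notes, and the counting method was not found in the sources used here. There were 0 columns of other samples. Names and coordinates came from GENCODE M21 (GRCm38): 42170 of 42256 identifiers had a name. Promoters came from RefSeq (GRCm38.p6).

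Counts were tested with edgeR 4.0.16 (R 4.3.3): TMM scaling, the filter of edgeR on low counts, the robust quasi-likelihood test with genotype as the only term, and Benjamini-Hochberg adjustment over 15852 genes at 0.05. A standard error is the log2 fold change over the square root of F. Genes below the filter used an exact permutation test of CPM. The fit was tested on simulated data. The common biological coefficient of variation was 13.5%. Alternatives used other scalings, filters and thresholds, DESeq2 1.42.0, limma 3.58.1 (voom, and the normalized values on a log2 scale with a pseudocount of 1), and left out each library.

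Labels give no replicate number or batch, so numbers only name libraries, and p-values measure the spread between these samples. No pair of libraries of 1 label agreed within sampling noise, and 0 pairs of all libraries were identical. Named genes are the 9, every called gene and the 2 of smallest p in each list, and the 5 most like Mzb1 and Cd79a (no antigen receptor segments or predicted models). Outside this rule, values are also given for Cdh11, cell type markers, Sdc1, Derl1, Derl2, Tnfsf13b, Tnfsf13, Rgs13 and further constant regions. The 9 genes and the lists were chosen with earlier results of these data known. A gene that this rule names is not reported here. Of 116 listed genes, Iglc1 and Iglc3 had no row.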

Additional observations from a re-analysis of the deposited data

Results flagged for a closer look

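In 50 groups of 4 libraries (25 genes, both labels), 3 had a library that stood apart from the other 3, where chance gives about 1 in 20. Tnfrsf17 was at 0.0771 CPM in CDH11+/+ replicate 4, which is 1 count, and at 0 in the other controls. Any count above 0 there would have stood apart, so that rate does not apply to this group. Btk was at 19.2 CPM in CDH11-/- replicate 4, and its nearest neighbour was at 14.9 CPM. Txndc5 was at 137.9 CPM in CDH11+/+ replicate 4, below the nearest at 148.8 CPM.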

How the results depend on the processing

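The count of 114 called genes became 208 with no filter, 515 in DESeq2, 685 in limma-voom with quality weights, 49 in limma on the authors' normalized values, 50 with the authors' factors as edgeR offsets and 285 at an adjusted p under 0.1. Leaving out 1 library gave 26 (without CDH11+/+ replicate 4) to 1004 (without CDH11+/+ replicate 1). Of the 9 genes 0 were called, and 1 in limma-voom with quality weights. Of the listed genes 0 were called, 3 in DESeq2, 6 in limma-voom with quality weights and 1 at an adjusted p under 0.1, and 0 to 6 when 1 library was left out (6 without CDH11+/+ replicate 1 and 1 without replicate 3). The cause was not tested. Mzb1, Derl3, Prdm1, Cd79a and Cd79b had positive and Xbp1 negative values in all 16 other fits. Without 1 library, the difference of mean CPM of Tnfrsf17 was 0.268 to 0.436, of Ms4a1 −0.111 to 0.294 and of Pax5 −0.143 to −0.0396. No paired analysis was possible because the labels give no replicate number that groups share. Depth limits Tnfrsf17, Ms4a1 and Pax5 most, at 22 counts or fewer a library.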

Other observations

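CD79A and CD79B form an obligate pair as proteins, and the ratio of their transcripts varied between libraries. Cd79a counts divided by Cd79b counts were 0.109, 0.171, 0.488 and 0.511 in CDH11+/+ replicates 1 to 4 and 0.509, 0.623, 0.384 and 0.421 in the CDH11-/- libraries. The low ratios, in CDH11+/+ replicates 1 and 2, rest on only 5 and 7 Cd79a counts. They belong to the pair of controls in which Mzb1, Jchain and Igkc were lowest. Ms4a1 and Pax5 were not lower there than in the other controls (7 and 11, and 8 and 12 counts, against 7 and 9, and 8 and 9).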
